A study of Mus musculus with 17 samples.

Results

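The megalin and cubilin endocytic complex was described through 5 genes: Lrp2, which encodes the receptor megalin, Cubn, which encodes the receptor cubilin, Amn, Dab2 and Lrpap1. These genes were selected on their rise in Nanog knockout (Nanog KO) cells in the same libraries, so their values in Nanog KO cells are given here as a description without a test. They make up 5 of the 15470 rows in the expression table, and all 5 were among the 15117 genes that entered the test (at least 1 CPM in at least 3 libraries).

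RNA-seq libraries had been made from mouse embryonic stem (ES) cells that lack Nanog, a transcription factor of the pluripotency network, and from the parental wild type line E14Tg2a, called control here. Nanog KO cells (line BT12) were sampled at 0, 12 and 24 h with 3 libraries at each time, and control cells at 0 h with 2 libraries and at 12 and 24 h with 3 libraries each, 17 libraries in all. At 0 h the cells were in 2i (the inhibitors CHIR-99021 and PD0325901) with LIF and serum replacement. This medium holds ES cells in the naive state. From 0 h on the cells were in serum without 2i and LIF, a change made in the paper to induce exit from pluripotency. Both genotypes went through the same change of medium, and both were kept on inactivated mouse embryonic fibroblasts. Each genotype is 1 line, so the loss of Nanog and any other difference between the lines cannot be told apart. The labels do not say whether the libraries of a group came from separate cultures. The p-values here then rest on library-to-library spread alone, and that spread may be technical. In bulk RNA, fewer cells that express a gene and less of its RNA in each cell cannot be told apart.

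Megalin is a large transmembrane receptor of the LDL receptor family that takes up lipoproteins, vitamin carrier proteins and many other ligands through clathrin-coated pits. Cubilin has no membrane-spanning part of its own: amnionless, the product of Amn, anchors it and carries it to the cell surface, Dab2 is an adaptor that links the tail of megalin to clathrin, and the receptor-associated protein encoded by Lrpap1 is a chaperone that keeps ligands off megalin in the endoplasmic reticulum. The complex is best known from the kidney proximal tubule and the visceral endoderm of the yolk sac, and megalin also from the neural plate.

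On GRCm38, with gene bounds from GENCODE M21, Lrp2 (ENSMUSG00000027070) lies on the minus strand of chromosome 2 from 69424340 to 69586065, and Cubn (ENSMUSG00000026726) on the same strand from 13276338 to 13491813. Amn (ENSMUSG00000021278) lies on the plus strand of chromosome 12 from 111271095 to 111276426, Dab2 (ENSMUSG00000022150) on the plus strand of chromosome 15 from 6299788 to 6440712, and Lrpap1 (ENSMUSG00000029103) on the minus strand of chromosome 5 from 35091501 to 35105766. Cubn overlaps the transcript Gm13270 on the other strand, and Dab2 overlaps the antisense gene Gm16311 and the pseudogene Gm18888. Whether reads were counted by strand was not given in the sources used here, so reads of these overlapping genes may be shared.

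The sequences just before the transcription starts of the 2 receptors, the anchor and the adaptor are shown because Cubn, Amn and Dab2 had closely correlated levels over the 17 libraries, while Lrp2 also climbed in control cells. Each is the 250 bases before a RefSeq start on GRCm38.p6, 5′ to 3′ on the strand of the gene, with matches to a searched motif in capitals.
Lrp2, chr2:69586030-69586279, minus strand: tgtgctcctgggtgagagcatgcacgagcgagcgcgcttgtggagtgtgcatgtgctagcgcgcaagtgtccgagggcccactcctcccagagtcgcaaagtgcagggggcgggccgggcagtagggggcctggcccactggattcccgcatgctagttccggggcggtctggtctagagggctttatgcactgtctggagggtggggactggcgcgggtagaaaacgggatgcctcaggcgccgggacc
Cubn, chr2:13491877-13492126, minus strand: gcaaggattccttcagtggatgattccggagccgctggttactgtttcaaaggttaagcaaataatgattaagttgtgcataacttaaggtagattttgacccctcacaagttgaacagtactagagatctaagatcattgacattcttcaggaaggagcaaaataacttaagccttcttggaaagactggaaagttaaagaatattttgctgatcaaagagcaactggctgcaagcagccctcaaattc
Amn, chr12:111270846-111271095, plus strand: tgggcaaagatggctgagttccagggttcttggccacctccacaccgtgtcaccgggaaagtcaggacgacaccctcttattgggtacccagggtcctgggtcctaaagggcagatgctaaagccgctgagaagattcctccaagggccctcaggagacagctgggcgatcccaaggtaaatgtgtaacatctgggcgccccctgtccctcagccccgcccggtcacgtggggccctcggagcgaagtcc
Dab2, chr15:6299539-6299788, plus strand: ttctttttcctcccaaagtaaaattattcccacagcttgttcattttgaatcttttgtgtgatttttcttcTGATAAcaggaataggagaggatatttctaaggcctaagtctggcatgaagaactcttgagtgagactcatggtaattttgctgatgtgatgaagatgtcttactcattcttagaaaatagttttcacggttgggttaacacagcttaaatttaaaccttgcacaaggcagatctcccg

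All 5 genes had a RefSeq start, and Dab2 had 2, which gave 6 windows of 300 bases (250 before to 50 after the start). The motifs searched, on both strands, were GATA, with the spellings AGATAA or TGATAA or AGATAG or TGATAG, and TAATGG, a homeodomain core for NANOG. Only the upstream Dab2 start had a GATA match, with TGATAA beginning 179 bases before the start, as capitalised above, and a reverse-strand match, TTATCT, beginning at base 15 after it. A GATA match was present in 29.8% of 32851 mouse promoter windows of this length, and a TAATGG match in 7.73% of them and in none of the 6 windows. The windows also differed in base composition. G and C made up 65.0% of the Lrp2 window, 62.3% of the Amn window and 61.3% of the Lrpap1 window, against 44.3% at Cubn and 37.7% at the upstream Dab2 start. The second Dab2 start was at 59.3%. These matches are letters in a window and describe neither binding nor control.

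Values are CPM (reads divided by a library total that was scaled with TMM, a scaling factor that balances libraries of different composition), as the authors deposited them. The reads behind the values totalled 8775372 to 33766086 per library, and 3 reads, the limit that a count of 0 allows, were worth 0.0851 to 0.326 CPM. Nanog itself was at 31.7 to 34.6 CPM in Nanog KO cells at 0 h and 12.5 to 16.1 CPM at 24 h, against 411 to 412 CPM and 271 to 313 CPM in control cells. Pluripotency markers fixed as a list of 10 genes summed to 4991 to 5170 CPM in Nanog KO libraries and 3811 to 3993 CPM in control libraries at 0 h, and to 3957 to 4519 CPM in Nanog KO libraries and 4555 to 4870 CPM in control libraries at 24 h. The sum was thus higher in Nanog KO at 0 h and lower at 24 h, with no overlap at either time. Markers of the fibroblast feeder cells (20 tested genes) summed to 1329 to 1467 CPM in Nanog KO cells at 0 h and 329 to 432 CPM at 24 h, against 2041 to 2192 CPM and 956 to 1093 CPM in control cells. The sum was lower in every Nanog KO library than in any control library of the same time and went down with time in both genotypes. Single markers went both ways: at 0 h 4 of the 20 were called higher in Nanog KO and 8 lower by limma. Over all tested genes 25.4% were called higher and 26.9% lower. The part of feeder cells in the values of the complex genes was not tested.

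Lrp2 was expressed in both genotypes and went up in both after the change to serum. It had 57.9, 59.0 and 70.6 CPM in Nanog KO cells at 0 h, 336, 323 and 323 CPM at 12 h, and 477, 461 and 395 CPM at 24 h. Control cells had 40.5 and 37.3 CPM at 0 h, 118, 114 and 120 CPM at 12 h, and 146, 158 and 141 CPM at 24 h. No 2 of the 6 groups overlapped, and the order from the top was Nanog KO at 24 h, Nanog KO at 12 h, control at 24 h, control at 12 h, Nanog KO at 0 h and control at 0 h. Lrp2 was thus the only gene of the complex whose level in Nanog KO cells at 0 h was below that of control cells at 24 h. The ratio of mean CPM of Nanog KO to control was 1.61 at 0 h, 2.79 at 12 h and 3.002 at 24 h. Most of the 24 h increase was in place by 12 h in both genotypes, 69.4% of it in Nanog KO cells, against 72.0% in control cells.

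Cubn was close to the detection limit in control cells and was the gene with the widest difference. It had 10.7, 10.1 and 12.3 CPM in Nanog KO cells at 0 h, 126, 122 and 125 CPM at 12 h, and 266, 239 and 202 CPM at 24 h. In control cells it had 0.482 and 0.359 CPM at 0 h, which were 7 and 9 reads, 0.738, 2.53 and 1.63 CPM at 12 h, and 2.94, 4.84 and 1.61 CPM at 24 h. Every Nanog KO library at 0 h was above every control library at any time, while control libraries at 12 and 24 h overlapped. The ratio of means was 26.2 at 0 h, 76.1 at 12 h and 75.1 at 24 h. The 16 reads in control cells at 0 h gave 0.404 CPM with an exact Poisson 95% interval of 0.231 to 0.657 CPM, which covers counting error only. Control libraries spread further at the later times, with a coefficient of variation of 20.7% at 0 h, 54.8% at 12 h and 51.8% at 24 h, so all 3 ratios are imprecise. Within Nanog KO cells the level at 24 h was 21.3 times that at 0 h, with 50.5% of the increase in place by 12 h.

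**Figure D1:**
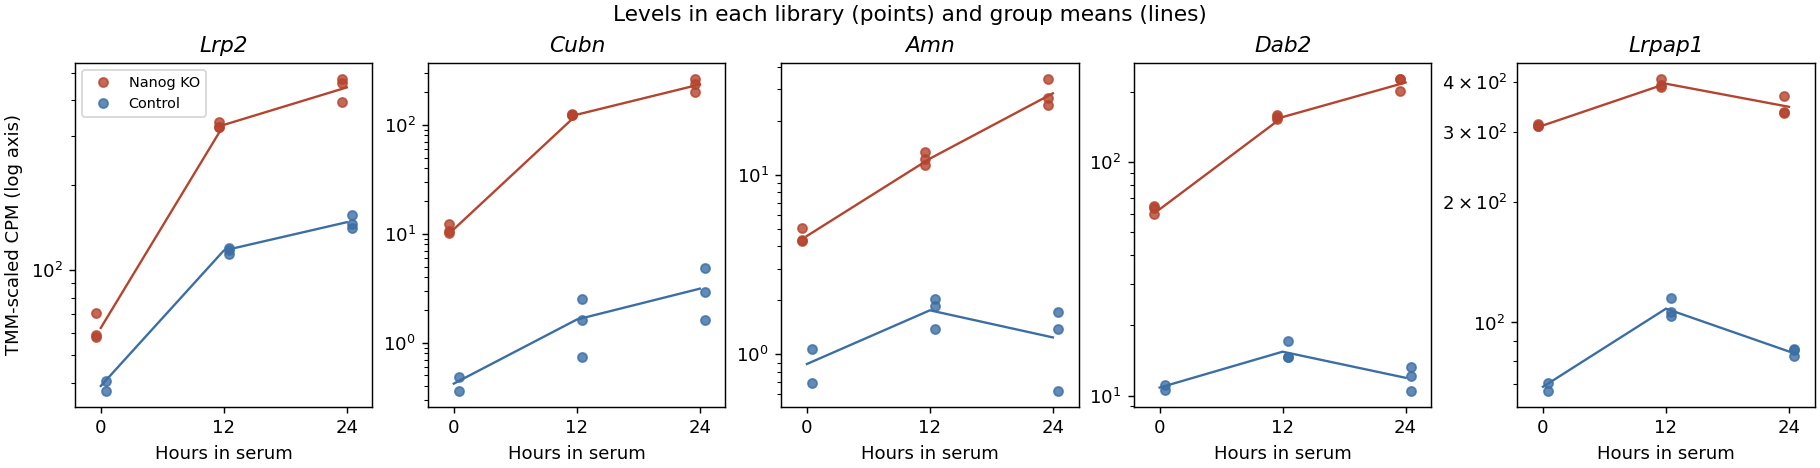
Level of each gene in every library (points, TMM-scaled CPM on log axes that differ between panels) against hours in serum, with Nanog KO in red, control in blue and lines through the group means. Lrp2 climbed in both genotypes, Cubn, Amn and Dab2 climbed mainly in Nanog KO cells, and Lrpap1 stayed at 309 to 407 CPM in Nanog KO cells and 67.4 to 115 CPM in control cells.

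Amn, whose product carries cubilin to the membrane, had the lowest counts in Nanog KO cells and the latest increase. It had 5.05, 4.35 and 4.29 CPM in Nanog KO cells at 0 h, 12.3, 11.3 and 13.3 CPM at 12 h, and 24.4, 26.7 and 34.3 CPM at 24 h. Control cells had 0.689 and 1.08 CPM at 0 h, 2.04, 1.39 and 1.85 CPM at 12 h, and 1.72, 1.38 and 0.624 CPM at 24 h. The 3 Nanog KO groups were separate from each other and from all control libraries, whereas the control groups at 12 and 24 h overlapped, as did those at 0 and 24 h. Only 32.4% of the 24 h increase in Nanog KO cells was in place by 12 h. The ratio of means of Nanog KO to control was 5.17 at 0 h, 7.003 at 12 h and 22.9 at 24 h.

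Dab2, the clathrin adaptor, had 59.7, 64.8 and 63.6 CPM in Nanog KO cells at 0 h, 159, 152 and 156 CPM at 12 h, and 227, 227 and 202 CPM at 24 h. Control cells had 11.1 and 10.5 CPM at 0 h, 14.6, 14.6 and 17.1 CPM at 12 h, and 10.4, 12.1 and 13.2 CPM at 24 h. Nanog KO levels were higher at each later time, while in control cells the 12 h libraries stood above the others and those at 24 h overlapped those at 0 h. The ratio of means was 5.80 at 0 h, 10.1 at 12 h and 18.4 at 24 h. Dab2 is the only one of the 5 genes on chromosome 15, where the median log2 difference between Nanog KO and control over the 587 other tested genes was 0.41, 0.43 and 0.44 at 0, 12 and 24 h, against -0.02, -0.01 and -0.02 over the genes of other chromosomes. The part of that shift in the Dab2 difference was not tested. Taken relative to the chromosome median, the log2 difference of Dab2 was 2.02, 2.83 and 3.65, and Dab2 ranked 2, 2 and 1 from the top of its chromosome. The change with time within Nanog KO cells had a chromosome 15 median of -0.01 at 24 h against 0 h.

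Lrpap1, the chaperone of megalin, had the highest level per kb of transcript of the complex in all 6 groups, and its difference between genotypes was similar at the 3 times. It had 310, 309 and 313 CPM in Nanog KO cells at 0 h, 407, 391 and 387 CPM at 12 h, and 334, 336 and 368 CPM at 24 h. Control cells had 70.8 and 67.4 CPM at 0 h, 115, 104 and 106 CPM at 12 h, and 85.3, 85.9 and 82.7 CPM at 24 h. No 2 of the 6 groups overlapped, and in both genotypes 12 h was the highest time, 24 h the next and 0 h the lowest. The ratio of means of Nanog KO to control stayed between 3.65 at 12 h and 4.50 at 0 h. Nanog KO cells at 24 h had 1.11 times the level at 0 h, and control cells at 24 h had 1.23 times theirs.

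All Nanog KO libraries were above all control libraries of the same time for each of the 5 genes at each of the 3 times. Over all tested genes, 25.4% were called higher in Nanog KO at 0 h, 24.6% at 12 h and 23.4% at 24 h by limma at an adjusted p under 0.05, and 28.8% were called higher at 24 h than at 0 h in Nanog KO cells. Since the genes were chosen for these same differences, the counts are given without a reading. On the scale of log2(CPM + 1), which understates the change of low genes, the fitted difference between Nanog KO and control at 24 h was 5.90 ± 0.23 (SE) for Cubn, 4.09 ± 0.08 for Dab2, 3.73 ± 0.17 for Amn, 2.02 ± 0.05 for Lrpap1 and 1.58 ± 0.07 for Lrp2. The 24 h change in Nanog KO cells exceeded the 24 h change in control cells by 2.83 for Cubn, 2.17 for Amn, 1.66 for Dab2 and 0.91 for Lrp2, and for Lrpap1 the difference of the changes was -0.14. The value of Cubn depended on the 1 CPM added before the logarithm: it was 1.88 with 0.1 CPM added and 1.504 by edgeR on the reads, below the 2.26 that edgeR gave for Amn.

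**Figure D2:**
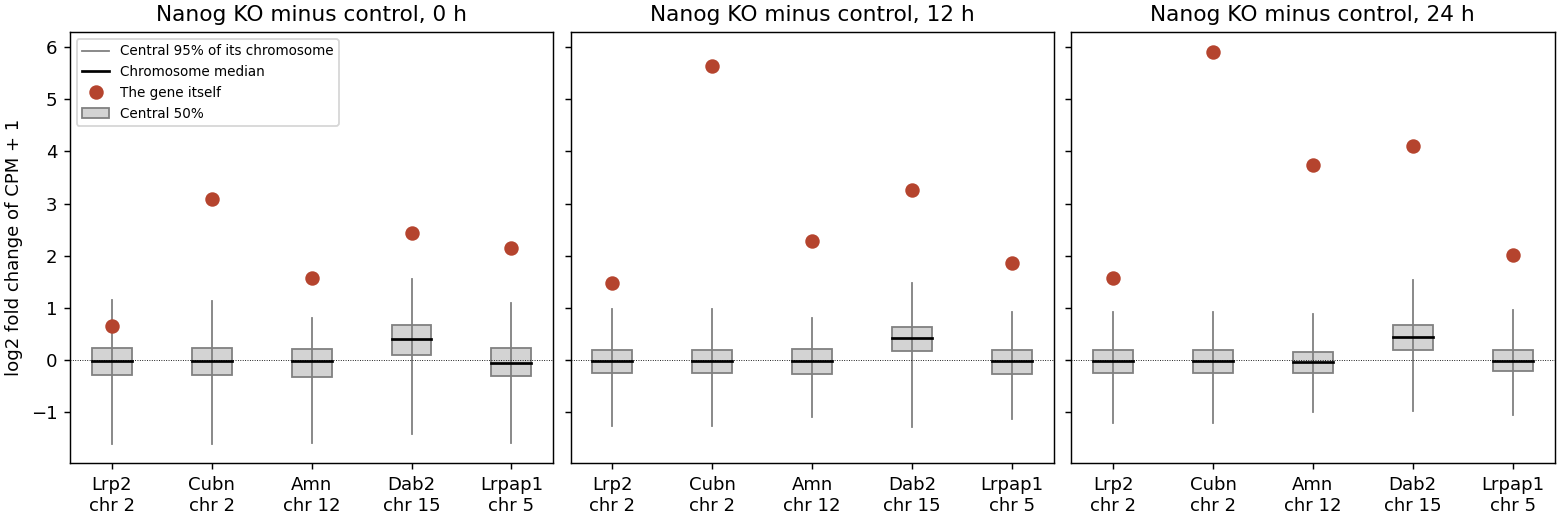
Fitted log2 difference of CPM + 1 between Nanog KO and control for each gene (red points) at 0, 12 and 24 h, over the other tested genes on its chromosome (grey box, central 50%; grey line, central 95%; black line, median). The chromosome medians lay between -0.04 and -0.01 except on chromosome 15, which held Dab2 and was at 0.41 to 0.44, and only Lrp2 at 0 h, at 0.67, was inside the central 95%.

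The change with time in control cells was not itself the measure used to choose the genes, and it was tested. The control libraries at 0 h do enter the difference from Nanog KO at 0 h, so choosing on that difference favours low values there. That would raise the changes from 0 h in control cells, and the p-values of those changes do not allow for it. All 5 genes were higher at 12 h than at 0 h in control cells, whereas 22.6% of all tested genes were called higher and 24.5% lower. Lrp2 had the clearest increase, at 1.57 ± 0.08 on the log2 scale (SE) with an adjusted p of 6.33e-11 by limma with Benjamini-Hochberg adjustment over 15117 genes. Lrpap1 followed with 0.64 ± 0.05 (limma, adjusted p = 2.85e-08) and Dab2 with 0.47 ± 0.09 (limma, adjusted p = 0.000206). The calls of Cubn, 0.83 ± 0.26 (limma, adjusted p = 0.0128), and of Amn, 0.55 ± 0.19 (limma, adjusted p = 0.0229), rested on few reads. The Cubn call was lost without control replicate 3 at 0 h, where the fold change was 0.77 (adjusted p = 0.0768 by limma), or replicate 2 at 12 h, where it was 0.59 (adjusted p = 0.0673 by limma), and the edgeR quasi-likelihood test gave an adjusted p of 0.0747. The Amn call was lost without control replicate 2 at 0 h, with 0.40 (adjusted p = 0.194 by limma), or without replicate 1 or 3 at 12 h, with 0.48 and 0.52 (adjusted p = 0.0755 and 0.0552 by limma).

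At 24 h against 0 h in control cells, 3 of the 5 genes were higher and 0 lower (limma; 0 lower also at an unadjusted p under 0.05 and by edgeR or DESeq2), where 26.1% of all tested genes were called higher and 28.7% lower. Lrp2 reached 3.80 times its 0 h mean, a log2 change of 1.90 ± 0.08 (limma, adjusted p = 2.37e-12), above 99.6% of all tested genes. Cubn reached 7.45 times its 0 h mean from a base of 7 and 9 reads, a log2 change of 1.47 ± 0.26 (limma, adjusted p = 0.000101). Lrpap1 had 0.29 ± 0.05 (limma, adjusted p = 0.000185). Amn, at 0.23 ± 0.19 (limma, adjusted p = 0.325), and Dab2, at 0.12 ± 0.09 (limma, adjusted p = 0.238), did not pass. Amn passed without control replicate 3 at 24 h, with 0.44 (adjusted p = 0.0373 by limma), and Dab2 without replicate 1 at 24 h, with 0.21 (adjusted p = 0.0387 by limma).

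Between 12 and 24 h the complex genes split in control cells. Lrp2 went on rising by 0.33 ± 0.07 (limma, adjusted p = 0.00235) and Cubn by 0.63 ± 0.23 (limma, adjusted p = 0.0424), while Dab2 fell by 0.35 ± 0.08 (limma, adjusted p = 0.00205) and Lrpap1 fell by 0.35 ± 0.05 (limma, adjusted p = 2.80e-05). Amn had -0.32 ± 0.17 (limma, adjusted p = 0.152). Over all tested genes, 15.1% were called higher in this step and 16.8% lower. The Cubn call in this step was marginal: its adjusted p was 0.146 with only the control groups in the fit and 0.0527 by DESeq2. It was also lost in 9 of the 17 fits that left out 1 library, among them at 0.35 without control replicate 2 at 24 h and 0.36 without replicate 1 at 12 h. For Amn the difference without control replicate 1 at 24 h was -0.48 (adjusted p = 0.0429 by limma).

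**Figure D3:**
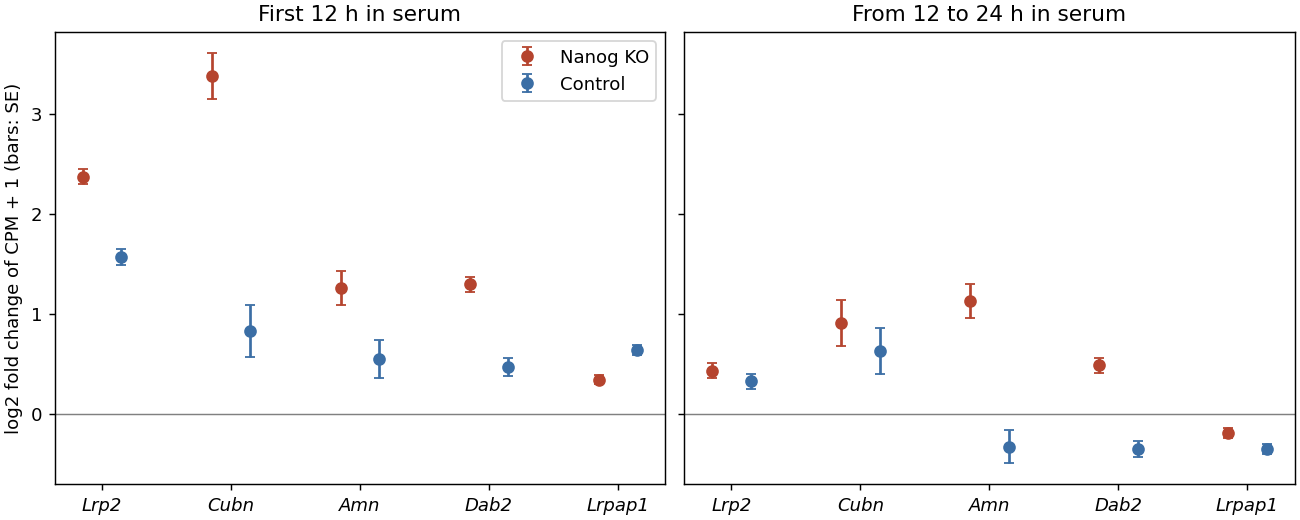
Fitted log2 fold change of CPM + 1 in the first 12 h in serum (12 h minus 0 h) and in the next 12 h (24 h minus 12 h) for each gene, with Nanog KO in red, left of control in blue, and bars of 1 SE. In the first step all changes were above 0, with Cubn at 3.38 in Nanog KO cells, against 0.83 in control cells, and in the second step Dab2 was at 0.49 in Nanog KO cells, against -0.35 in control cells.

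Per kb of the longest coding transcript, so that genes of different length can be compared, the order in Nanog KO cells at 24 h was Lrpap1 at 116 CPM per kb, Dab2 at 46.9, Lrp2 at 28.7, Cubn at 20.9 and Amn at 16.7. Cubn and Amn, whose products bind each other, were not separable there: the ratio of Cubn to Amn per kb ranged over 0.887 to 1.65 in the 3 libraries. At 0 h in Nanog KO cells that ratio was 0.319 to 0.432, and at 12 h it was 1.41 to 1.63. In control cells it was 0.0503 to 0.106 at 0 h, 0.0545 to 0.275 at 12 h and 0.258 to 0.531 at 24 h, so Amn was above Cubn per kb in every control library. The ratio of Cubn to Lrp2 per kb was 0.242 ± 0.009 at 0 h, 0.521 ± 0.008 at 12 h and 0.725 ± 0.034 at 24 h in Nanog KO cells (SD, n = 3 each). In control cells the mean of that ratio was 0.0148, 0.0192 and 0.0285 at the same times. The receptors therefore came close to each other in level only in Nanog KO cells. The ratio of Lrpap1 to Lrp2 per kb was 26.0, 6.26 and 4.08 at 0, 12 and 24 h in Nanog KO cells, against 9.21, 4.78 and 2.97 in control cells, lower at each later time in both as Lrp2 climbed.

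**Figure D4:**
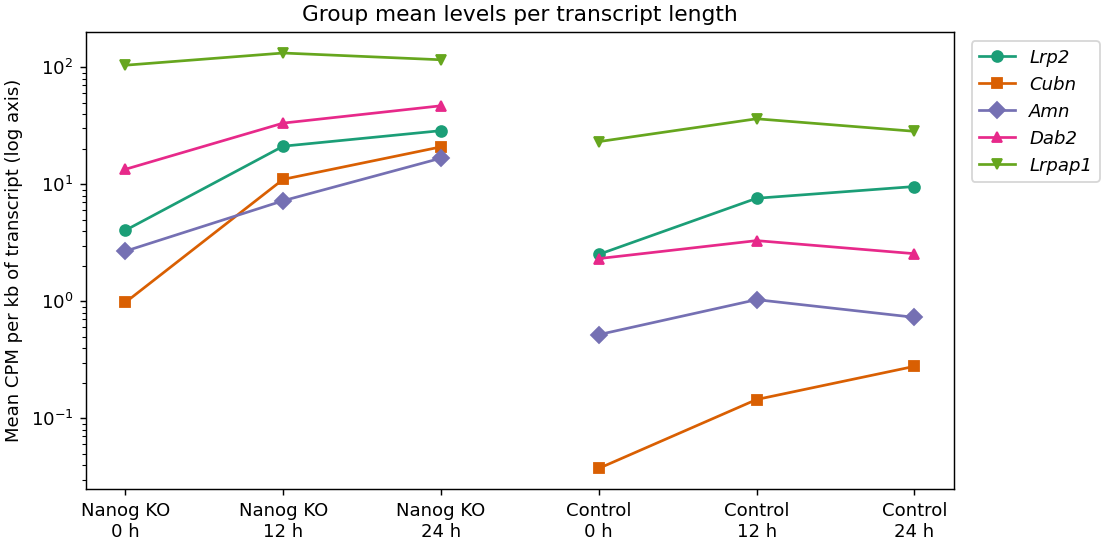
Group mean level per kb of the longest coding transcript (CPM per kb, log axis) of the 5 genes, with Nanog KO at 0, 12 and 24 h on the left and control at the same times on the right. In Nanog KO cells at 24 h the genes lay within 16.7 to 116 CPM per kb, and in control cells at 24 h they were spread over 0.278 to 28.4 CPM per kb.

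The correlation between the genes over the 17 libraries (Pearson r of log2(CPM + 1), a description in which libraries share genotype and time) set Cubn, Amn and Dab2 together, at 0.967 for Cubn with Amn, 0.966 for Cubn with Dab2 and 0.964 for Amn with Dab2. Lrpap1 was close to Dab2, at 0.957, and was at 0.883 with Cubn and 0.882 with Amn. Lrp2 stood further off, at 0.828 with Cubn, 0.775 with Amn, 0.698 with Dab2 and 0.562 with Lrpap1. All 5 genes were chosen for a rise in Nanog KO cells, and that choice favours high r between them. Patterns were compared among 2934 genes, without predicted genes. These had a group mean of at least 5 CPM in some group and a range of group means of at least 1 on the log2 scale. Of the other 2933, Cubn and Amn ranked 25 and 27 in likeness to Dab2, 255 and 258 to Lrpap1, and 221 and 325 to Lrp2. In likeness to Amn, Cubn ranked 4 and Dab2 5, and in likeness to Cubn, Amn ranked 9 and Dab2 10. The lists of most similar genes that follow leave out the complex. The genes with the pattern most like Lrp2 were Cd209c (r = 0.994), Pwp2, Myc, Slc38a2 and Med22. Cd209c averaged 3.79, 28.2 and 46.7 CPM in Nanog KO cells and 1.95, 9.17 and 13.0 CPM in control cells at 0, 12 and 24 h. The genes most like Cubn were Lrrk2, Abcc4, Pfkm, Spns2 and Rtl1, with r between 0.974 and 0.986. Those most like Amn were Lgmn, Tef, Srxn1, Myo7a and Pth1r, with r between 0.961 and 0.981, and those most like Dab2 were Cemip, Habp2, Nostrin, Aqp8 and Pth1r, with r between 0.985 and 0.992. Lgmn encodes a lysosomal protease, and it averaged 61.1, 89.3 and 139 CPM in Nanog KO cells against 34.4, 33.8 and 31.5 CPM in control cells. The genes most like Lrpap1 were Sqstm1, Ctsd, Plet1, Aard and Hs3st1, with r between 0.983 and 0.991. Sqstm1, an autophagy receptor, and Ctsd, a lysosomal protease, shared with Lrpap1 a level that was already high in Nanog KO cells at 0 h, at 703 and 595 CPM, against 199.95 and 223 CPM in control cells. Of the similar genes, Myc, Slc38a2, Lrrk2, Pfkm, Tef and Aard lie on chromosome 15, where the median log2 difference between Nanog KO and control was 0.41 to 0.44. The part of that shift in their likeness to the members was not tested.

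The closest tested genes on either side, leaving out predicted genes (Gm or Rik symbols), had smaller differences than the gene of the complex beside them. Each gene of the complex was chosen for its rise in Nanog KO cells, which made a smaller difference beside it likely in advance. The values of the neighbours are therefore a description. Of these, 24 h means in Nanog KO and control cells were low for Abcb11 (0.58 and 0.56 CPM), Ptger4 (1.85 and 1.36) and Cpz (2.49 and 2.03). The log2(CPM + 1) scale understates differences at such levels. Rsu1, 4.92 kb from Cubn, had a log2 difference between Nanog KO and control of -0.06 at 0 h and -0.02 at 24 h, and Trdmt1, 17.2 kb away on the other side, had 0.67 and 0.01. On the sides of Lrp2, Abcb11 had -0.10 at 0 h and 0.02 at 24 h, and Bbs5 had 0.48 and 0.32, the first of which was near the 0.67 of Lrp2 at 0 h. On the sides of Amn, Traf3 had -0.58 at 0 h and -0.37 at 24 h, and Cdc42bpb had -0.08 and 0.07. Rictor, 268 kb from Dab2 on chromosome 15, had 0.71 at 0 h and 0.34 at 24 h, and Ptger4, 1056 kb away on the other side, had 0.07 and 0.28. On the sides of Lrpap1, Rgs12 had -0.88 at 0 h and -0.28 at 24 h, and Cpz, 396 kb away, had -0.41 and 0.20.

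Ligands of the receptors were followed as a list of secreted and plasma proteins, of which 14 of 25 were tested. In Nanog KO against control, 9 were called higher and 4 lower at 0 h, 8 higher and 3 lower at 12 h, and 12 higher and 1 lower at 24 h. Over all tested genes 25.4% were called higher and 26.9% lower in Nanog KO at 0 h, 24.6% and 25.2% at 12 h, and 23.4% and 24.5% at 24 h. The median log2 difference of the list was 0.59 at 0 h and 0.76 at 24 h, where the median of all tested genes was -0.01 at both. Apoe, a lipoprotein ligand of the LDL receptor family, was at 1471 to 1529 CPM in Nanog KO cells and 303 to 318 CPM in control cells at 0 h (log2 difference 2.28 ± 0.11, limma, adjusted p = 7.57e-12). Tcn2, the transport protein of vitamin B12 in plasma, averaged 45.2 ± 2.9 CPM in Nanog KO cells (SD, n = 3) and 21.3 ± 2.3 CPM in control cells (SD, n = 2) at 0 h, and it was higher in Nanog KO at all 3 times. The metallothioneins Mt1 and Mt2, which bind metal ions, had log2 differences of 0.88 and 0.97 at 0 h and 1.39 and 0.74 at 24 h. Clu, a secreted chaperone, was lower in Nanog KO at 0 h by a log2 difference of -0.92 and higher at 24 h by 0.78, with means of 33.9 CPM in Nanog KO cells and 19.3 CPM in control cells by then.

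Of 28 adaptors, coat proteins, motors and early endosome proteins of receptor internalisation, all tested, 15 were higher and 2 lower in Nanog KO at 0 h, 13 higher and 4 lower at 12 h, and 12 higher and 3 lower at 24 h. The shares over all tested genes were 25.4% higher and 26.9% lower at 0 h, 24.6% and 25.2% at 12 h, and 23.4% and 24.5% at 24 h. The differences of the list were small, with a list median of 0.23 at 0 h and 0.09 at 24 h. Myo6, the motor that carries endocytic vesicles inward along actin, had the widest at 0 h, with 28.7 ± 1.1 CPM in Nanog KO cells (SD, n = 3) and 13.3 ± 0.8 CPM in control cells (SD, n = 2). The clathrin heavy chain Cltc averaged 726 CPM in Nanog KO cells and 440 CPM in control cells at 0 h, and the light chain Cltb had a log2 difference of 0.59. The late endosome GTPase Rab7 had 0.60. Myo6, Cltc, Cltb and Rab7 were called higher in Nanog KO at all 3 times by limma. In Nanog KO cells 2 members of the list were called higher and 18 lower at 24 h than at 0 h, where 29.5% of all tested genes were called lower. The receptors and their anchor climbed over the same interval.

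The other receptors of the LDL receptor family differed in both directions. Of 13 tested members of the list, which includes the chaperone Mesd, 1 was higher and 5 were lower in Nanog KO at 0 h, and 4 were higher and 5 lower at 24 h. The shares over all tested genes were 25.4% higher and 26.9% lower at 0 h, and 23.4% and 24.5% at 24 h. In control cells 0 of the 13 were called higher at 24 h than at 0 h and 8 were called lower (limma), with 0 higher also at an unadjusted p under 0.05 and by edgeR or DESeq2. For that change 26.1% of all tested genes were called higher and 28.7% lower. Lrp4, a receptor at neuromuscular synapses, was at 12.5 CPM in Nanog KO cells and 37.6 CPM in control cells at 0 h (log2 difference -1.51 ± 0.09, limma, adjusted p = 2.13e-10). Sorl1, a sorting receptor, was lower in Nanog KO at all 3 times, with -0.79, -0.98 and -0.86. Lrp3 had -0.77 and Lrp8, a reelin receptor, -0.70 at 0 h, and both were higher in Nanog KO at 24 h, with 0.30 and 0.59. Lrp10 had -0.40 at 0 h and 0.17 at 24 h, and the second value did not pass (limma, adjusted p = 0.12).

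The complex is a mark of visceral endoderm, and a list of 18 other genes of primitive and visceral endoderm was counted beside it. Of 15 tested, 8 were higher and 5 lower in Nanog KO at 0 h, 11 higher and 2 lower at 12 h, and 12 higher and 1 lower at 24 h, and the list median was 0.77 at 0 h and 2.18 at 24 h. Over all tested genes 25.4% were called higher and 26.9% lower at 0 h, 24.6% and 25.2% at 12 h, and 23.4% and 24.5% at 24 h. In control cells 0 of the 15 were called higher at 24 h than at 0 h and 8 lower (limma). The list median of that change was -0.46, and its highest value was 0.62 for Cer1 (limma, adjusted p = 0.0687). For that change 26.1% of all tested genes were called higher and 28.7% lower. Lrp2, Cubn and Lrpap1 were called higher over the same interval. The transcription factors Gata6, Sox7, Gata4 and Hnf4a led the list at 0 h, with log2 differences of 3.30, 2.97, 2.68 and 1.95 (limma, adjusted p between 1.75e-12 and 9.00e-09). Gata6 averaged 40.2 ± 2.5 CPM in Nanog KO cells (SD, n = 3) and 3.27 ± 1.31 CPM in control cells (SD, n = 2) at 0 h. Sox7 was at 13.9 to 15.3 CPM in Nanog KO cells and 0.957 to 0.965 CPM in control cells at 0 h. Pdgfra, a growth factor receptor of the primitive endoderm, averaged 20.9, 35.8 and 44.3 CPM in Nanog KO cells at 0, 12 and 24 h and 5.48, 4.43 and 3.71 CPM in control cells. Gata6, Gata4 and Hnf4a were thus already higher in Nanog KO at 0 h, like Lrpap1, and changed less with time in these cells than Cubn, with log2 changes over 24 h of 0.58, 0.43 and 0.07 against 4.29. Genes of the parietal endoderm, a relative of the visceral endoderm that makes a basement membrane, were 7 higher and 3 lower of 12 at 0 h and 10 higher and 1 lower at 24 h.

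Of 10 tested genes of the neural plate and neuroepithelium, where megalin is also known, 1 was higher and 8 were lower in Nanog KO at 0 h, and 1 was higher and 5 were lower at 24 h. Of 8 tested genes of the kidney proximal tubule other than the complex, 4 were higher and 1 lower at 0 h, and 6 were higher and 0 lower at 24 h (limma; 0 lower also at an unadjusted p under 0.05 and by edgeR or DESeq2). Among the 20 fibroblast genes, Nanog KO cells had 4 higher and 8 lower at 0 h, and 1 higher and 13 lower at 24 h. The shares over all tested genes were 25.4% higher and 26.9% lower at 0 h, and 23.4% and 24.5% at 24 h.

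**Figure D5:**
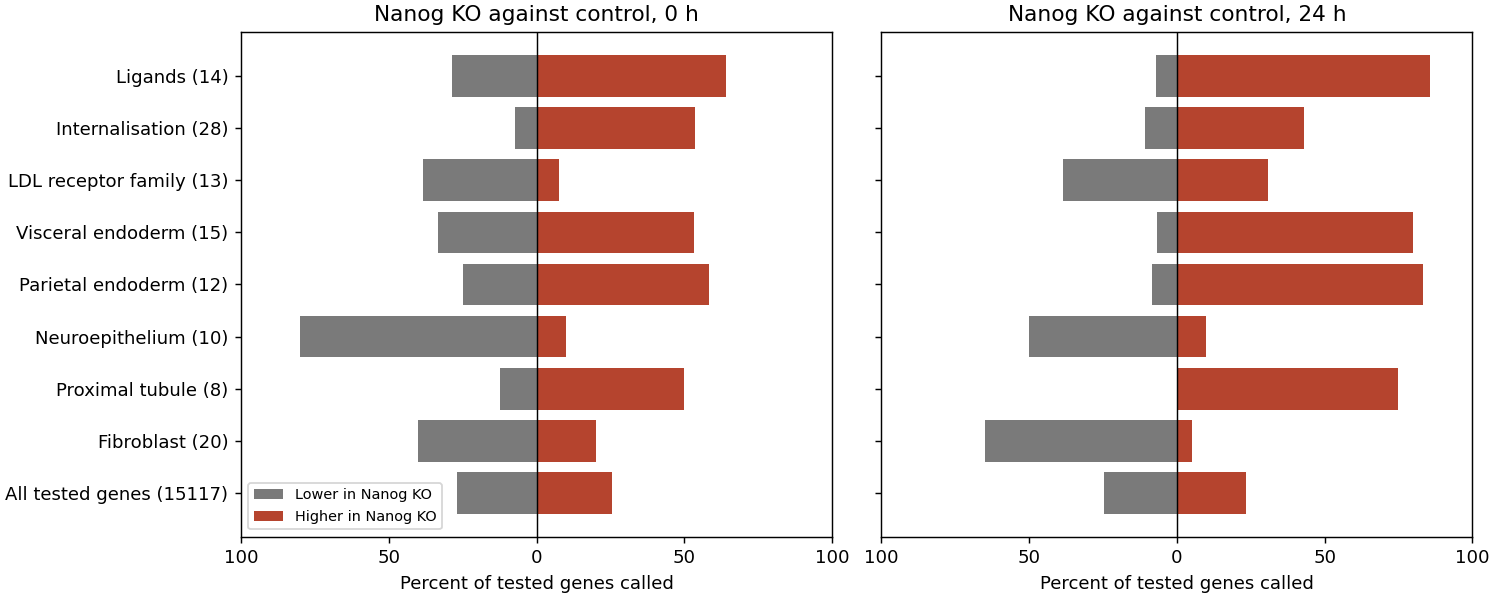
Percent of the tested genes of each list (number tested in brackets) called higher (red, to the right) or lower (grey, to the left) in Nanog KO against control at 0 h and 24 h, with all tested genes in the last row. Ligands and visceral endoderm genes had 12 of 14 and 12 of 15 genes higher at 24 h, and fibroblast genes had 13 of 20 lower.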

How the data were processed

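The authors trimmed single reads with cutadapt 1.3, dropped reads under 30 bases and quantified genes with RSEM on GRCm38 with Ensembl 76. The submitters' processing notes name CASAVA 1.8.2 and RSEM 1.2.3, and the methods state a different version of RSEM. The deposited signal is TMM-scaled CPM from edgeR. Converted back to reads, 100% of the values in each library came out whole (tolerance 0.001 reads), which places them before the ComBat correction that the methods name. Depth is the sum of these reads.

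From this signal, log2(CPM + 1) was fitted with limma 3.58.1 (trend) in R 4.3.3, 1 coefficient per genotype and time over 17 libraries, with Benjamini-Hochberg adjustment and calls at an adjusted p under 0.05. Of 15470 rows, 353 did not meet the minimum of 1 CPM in 3 libraries. The fit was tested on simulated data. Alternatives were edgeR 4.0.16 and DESeq2 1.42.0 on the recovered reads, other filters, scalings and pseudocounts, and leaving out each library. The members and lists were chosen with earlier results of these data known. Named list genes are the 5 called ones with the widest difference in Nanog KO against control at 0 h, of which 1 is not reported here, and genes like a member are the 5 with the highest Pearson r. Neighbouring genes were taken by position after levels were seen. Promoter windows are from RefSeq.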

Additional observations from a re-analysis of the deposited data

Results flagged for a closer look

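Between 12 and 24 h Dab2 moved opposite ways in the genotypes: the mean was 63.2 CPM higher at 24 h in Nanog KO cells, and all 3 libraries stood above all 3 at 12 h, while the mean differed by -3.49 CPM in control cells, where all 24 h libraries were below all 12 h libraries. This difference between the genotypes was not tested, since Dab2 was chosen for its rise in Nanog KO cells.

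Among the ligands, Apoe differed by -440 CPM at 12 h against 0 h in Nanog KO cells and by 88.1 CPM in control cells, with no overlap in either genotype, and the difference between these steps was not tested. The change of Clu over 24 h was greater in Nanog KO than in control cells by 1.70 on the log2 scale, and that of Mt1 by 0.51 (limma interaction, adjusted p = 0.00684).

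In the LDL receptor family, the 24 h change was greater in Nanog KO than in control cells for Lrp8 by 1.28, Lrp3 by 1.07, Lrp4 by 0.83 and Lrp10 by 0.57. These genes and Clu were named for a lower level in Nanog KO at 0 h, and the same 0 h difference enters the comparison of changes with its sign turned, so their choice favours these values and no p is given. Lrp4 also differed by 2.66 CPM between 12 and 24 h in Nanog KO cells and by -9.15 CPM in control cells, and Lrp3 by 0.832 CPM at 12 h against 0 h in Nanog KO cells and by -3.81 CPM in control cells. These opposite steps were not tested.

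Of the visceral endoderm genes, the 24 h change was greater in Nanog KO cells for Pdgfra by 1.504 (limma interaction, adjusted p = 8.62e-07) and Gata4 by 0.85 (limma interaction, adjusted p = 0.0374). Sox7 differed by -2.21 CPM at 12 h against 0 h in Nanog KO cells and by 0.927 CPM in control cells, then by 3.98 CPM between 12 and 24 h in Nanog KO cells and by -0.777 CPM in control cells. Neither pair of steps was tested.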

How the results depend on the processing

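Every count of genes called over all tested genes stayed within 1.5 times under all alternatives, and no direction of a member was reversed. On the recovered reads edgeR called 7126 genes at 12 h against 0 h in control cells, where limma called 7118. The tests in control cells that changed were those of Cubn, Amn and Dab2. For Cubn at 12 h against 0 h the log2 change was 1.67 by edgeR (adjusted p = 0.0747) and 0.59 to 1.10 without 1 library. For Cubn at 24 h against 12 h it was 0.63 both with only the groups compared and by limma without the trend, 1.013 by DESeq2, and these 3 alternatives ended the call, as did leaving out 1 library in 9 of 17 fits (0.35 to 0.93). Without 1 library Amn ranged over 0.40 to 0.70 at 12 h against 0 h, 0.069 to 0.44 at 24 h against 0 h and -0.48 to -0.11 at 24 h against 12 h, and Dab2 over 0.050 to 0.21 at 24 h against 0 h. The cause was not tested. In Nanog KO cells the fitted differences of low genes depended on the 1 CPM added: that of Cubn at 0 h was 3.08, but 4.42 with 0.1 CPM and 4.75 by edgeR. Of the counts in gene lists, 70 moved by more than 1.5 times, and these are small counts.

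Replicate numbers did not pair the libraries: of 40 same-numbered pairs 6 had a correlation over 0.1, the range was -0.322 to 0.171, and 1 of 17 libraries was closest to its own number. With the replicate block the change of Cubn in control cells at 12 h was 0.87 (limma, adjusted p = 0.0103), and the block changed no call of a member. Cubn and Amn had 7 to 116 reads per library in control cells. Libraries of a group also differed in Cubn: at 12 h 26 reads gave 0.738 CPM in one library and 31 reads gave 2.53 CPM in another.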
